A study of Mus musculus with 6 samples.

Results

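Long noncoding RNAs are transcripts that are not translated, and many act, or are held, in the nucleus. Malat1 sits in nuclear speckles, where splicing factors gather, and Neat1 is the scaffold of the paraspeckle. Other such transcripts are precursors: microRNA hosts carry microRNA hairpins that Drosha and Dicer cut out, and Snhg genes carry small nucleolar RNAs (snoRNAs), which guide the modification of ribosomal RNA, in their introns. A last kind runs opposite to a coding gene and is named after it with the suffix "os". Described here are 177 genes whose symbols fit these names (Snhg with a number, Mir with hg, or a final "os" with or without a digit) or that are Malat1, Neat1, Ppnr, Pvt1, Miat, Gas5, Norad or Dleu2, out of 21938 genes measured. Of these, 157 were taken as noncoding by the GENCODE and RefSeq annotations. They include 2 with no entry in either (Mir181a-1hg and Lef1os1) and Snhg11, which GENCODE calls coding and RefSeq noncoding. The other 20 are coding genes caught by their last letters, such as Nos1 and Sos1.

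Soft palate tissue was taken from mouse embryos at E14.0 and sequenced as 6 libraries. The 3 mutants (replicates 5, 6 and 7) were Osr2-Cre;b-cateninfl/fl, in which Cre expressed from Osr2, a gene of palatal mesenchyme, recombines the floxed alleles of beta-catenin, the transcriptional effector of canonical Wnt signalling. The 3 controls (replicates 1, 2 and 3) were b-cateninfl/fl by the protocol and were labelled wild type, and both groups carried the floxed alleles by the protocol. Whether a library was 1 embryo or a pool is not given, so the spread between libraries may be partly technical. Values are CPM (read counts scaled to the same total in each library), and 1 CPM stood for about 10 to 15 reads, since the libraries held an estimated 12272749 to 15089168 reads in mutants and 10018477 to 12842347 in controls. In a whole tissue, fewer cells of a type and less RNA per cell cannot be told apart.

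The mutant and control libraries correlated with each other at 0.970 to 0.981, against 0.981 to 0.988 among mutants and 0.981 to 0.986 among controls. Osr2 averaged 16.1 ± 3.2 CPM in mutants and 46.9 ± 11.2 CPM in controls (SD, n = 3 each; limma adjusted p = 0.0285). Ctnnb1, the gene of beta-catenin, averaged 599.8 ± 29.1 CPM in mutants and 718.1 ± 59.0 CPM in controls (limma adjusted p = 0.183). Xist, an RNA of female cells, was at 2054 CPM in mutant 7 and 1188 CPM in control 3. In every other library Xist was at 13.1 to 17.3 CPM, and the part of sex in the values was not tested. The summed level of 8 skeletal muscle markers was 4224 to 5211 CPM in mutants and 6208 to 13245 CPM in controls, that of 7 erythroid markers 774.3 to 1361 CPM in mutants and 1594 to 4725 CPM in controls, and that of 8 palatal mesenchyme markers 620.7 to 748.0 CPM in mutants and 787.3 to 865.5 CPM in controls. The sum of 6 macrophage markers was 33.7 to 42.3 CPM in mutants and 42.8 to 48.5 CPM in controls. In the other direction, 8 motile cilium markers summed to 260.3 to 335.0 CPM in mutants and 87.4 to 248.2 CPM in controls. None of these marker genes was at 0 in every library. Every mutant was below every control in 8 of 8 muscle, 7 of 7 erythroid and 2 of 6 macrophage markers. Of the 8 palatal mesenchyme markers this held only for Osr2, and Msx1 averaged higher in mutants. Of the 8 motile cilium markers, 5 had every mutant above every control. Of all genes, 10.8% were lower and 17.1% higher in this way. An exact two-sided permutation test of each of these sums gave p = 0.1, the smallest that 3 against 3 allows. These sums are given because their groups did not overlap, which by itself fixes that p. The marker sums of epithelium, neurons, Schwann cells, endothelium, cartilage and osteoblasts overlapped between groups. The part of this difference in makeup in the values given here was not tested.

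The microRNAs that the hosts carry are shown first, as RNA read 5′ to 3′ from RefSeq for GRCm38.p6, with the seed (bases 2 to 8, the part that pairs with targets) in capitals. They show what the host transcripts encode; mature microRNAs were not measured. Mir99ahg and Mir100hg, on chromosomes 16 and 9, are related hosts: miR-99a-5p and miR-100-5p share a seed, and both hosts encode the same miR-125b-5p.
Mir99ahg, miR-99a-5p: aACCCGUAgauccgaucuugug
Mir100hg, miR-100-5p: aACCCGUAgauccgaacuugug
Both hosts, miR-125b-5p: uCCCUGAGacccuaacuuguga
Mir99ahg, let-7c-5p: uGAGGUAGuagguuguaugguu
Dleu2 carries miR-15a and miR-16, which share a seed and are known in human lymphoid cells for holding down BCL2.
Dleu2, miR-15a-5p: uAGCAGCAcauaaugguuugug
Dleu2, miR-16-5p: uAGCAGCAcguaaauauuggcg
Mir17hg is the precursor of a growth-promoting cluster, here by one member of each of its seed groups.
Mir17hg, miR-17-5p: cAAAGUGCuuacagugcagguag
Mir17hg, miR-18a-5p: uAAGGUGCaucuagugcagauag
Mir17hg, miR-19a-3p: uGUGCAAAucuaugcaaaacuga
Mir17hg, miR-92a-3p: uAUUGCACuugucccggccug
Mir205hg carries an epithelial microRNA, and Dnm3os carries a pair known from mesenchyme and skeleton.
Mir205hg, miR-205-5p: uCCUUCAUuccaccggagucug
Dnm3os, miR-199a-5p: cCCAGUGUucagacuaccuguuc
Dnm3os, miR-214-3p: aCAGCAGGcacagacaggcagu

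Most of the 157 noncoding RNAs were higher in mutants, by small amounts. On log2(CPM + 1), a scale that understates the change of low genes, 124 had a positive difference and 33 a negative one, with a median of 0.21 and a range of -0.67 to 1.64. The median over all 21938 genes was 0.04. In 37 of the 157 every mutant library was above every control library, in 6 every mutant was below, and in 114 the groups overlapped. As percentages these were 23.6% higher and 3.82% lower, where 17.1% of all genes were higher and 10.8% lower in this way. By limma with Benjamini-Hochberg adjustment over all genes at 0.05, 3 of the 157 passed, all 3 of them higher (Mir99ahg, Ppnr and Egfros), where 0.196% of all genes passed as higher and 0.283% as lower. The RNAs were chosen by their names and selected on measured values of this same contrast, in which nuclear noncoding RNAs were higher, so their differences are a description and support no test. Their levels spread widely: 110 averaged at least 1 CPM, 19 at least 20 CPM, and 6 had a library at 0.

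**Figure D1:**
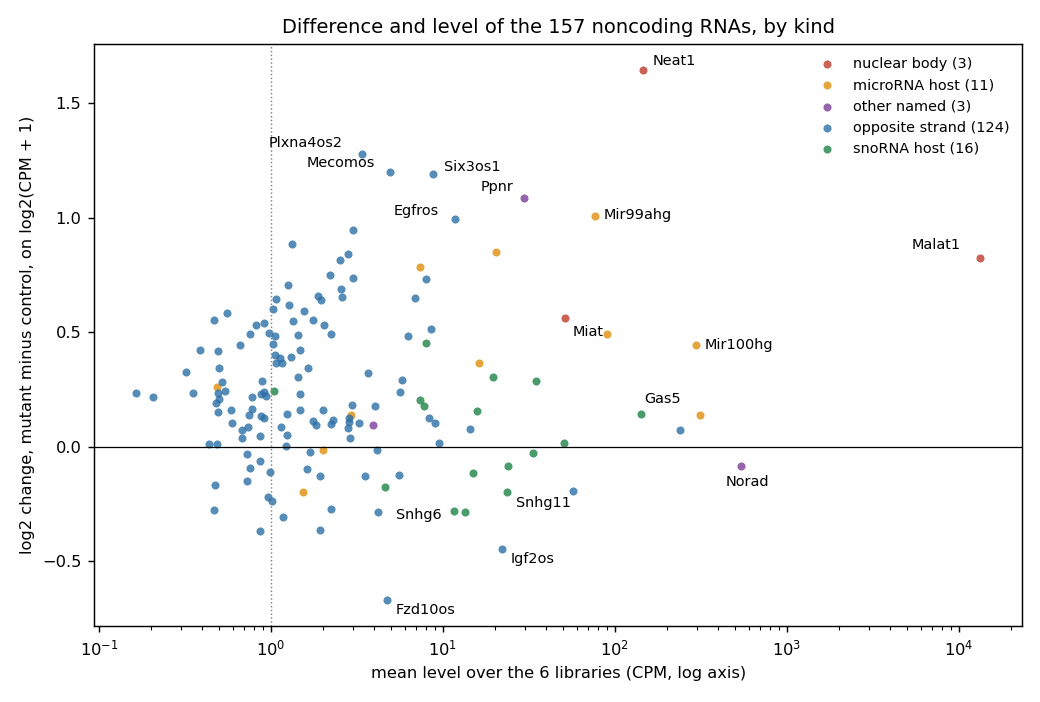
Each point is 1 of the 157 noncoding RNAs, placed by its mean level over the 6 libraries (CPM, log axis) and its log2 change, mutant minus control, on log2(CPM + 1); colours give the kind and the dotted line marks 1 CPM. The points lie mostly above 0, with Neat1 highest at 1.64 and Fzd10os lowest at -0.67, and the snoRNA hosts lie between -0.29 and 0.45.

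The kinds differed in their values. The 3 RNAs of nuclear bodies had the highest median log2 difference, 0.82, followed by the 11 microRNA hosts at 0.36. Malat1, Neat1 and Miat, which make up the first kind, were picked by name with this contrast known, so their rank is a description. Of these 3, 1 did not overlap and was higher, and none passed by limma. The 124 opposite-strand RNAs had a median of 0.22, with 30 not overlapping and higher and 5 not overlapping and lower, where 17.1% of all genes were higher and 10.8% lower. The 16 snoRNA hosts had a median of 0.08, and 9 were positive and 7 negative. The 20 coding genes that only share the suffix had a median of 0.01, with 12 positive and 8 negative.

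Malat1, at chromosome 19, 5795690 to 5802672 (mm10, minus strand, a single exon), was the most abundant of all these RNAs. It had 18269, 15225 and 17561 CPM in mutants, against 8889, 10498 and 9477 CPM in controls. All 3 mutants were above all 3 controls. The log2 change was 0.82 ± 0.20 (SE, n = 3 each), a ratio of 1.77. Malat1 is dispensable for mouse development. Per kilobase of exon it was at 2437 CPM in mutants and 1378 CPM in controls.

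Neat1 lies 22.0 kb away on the same strand (chromosome 19, 5824708 to 5845478) and had the largest difference of all 157, with much more spread. It had 290.4, 130.5 and 230.8 CPM in mutants, against 50.7, 132.9 and 41.2 CPM in controls. Control 2 was above mutant 6, so the groups overlapped. The log2 change was 1.64 ± 0.42 (SE, n = 3 each), and it was 2.15 without control 2. Over all settings tried, single libraries left out among them, it was 1.32 to 2.15. Control 2 was also the highest control in the summed level of 8 motile cilium markers, which was 303.7, 260.3 and 335.0 CPM in mutants and 180.7, 248.2 and 87.4 CPM in controls; its part in Neat1 was not tested.

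Miat, an RNA of nuclear foci known from neurons and, in human, from a myocardial infarction locus (chromosome 5, 112213228 to 112229395), had 85.7, 46.6 and 53.6 CPM in mutants, against 33.5, 39.0 and 49.7 CPM in controls. Mutant 5 was well above the rest, and mutant 6 was below control 3. The log2 change of 0.56 ± 0.22 (SE, n = 3 each) was 0.31 without mutant 5.

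**Figure D2:**
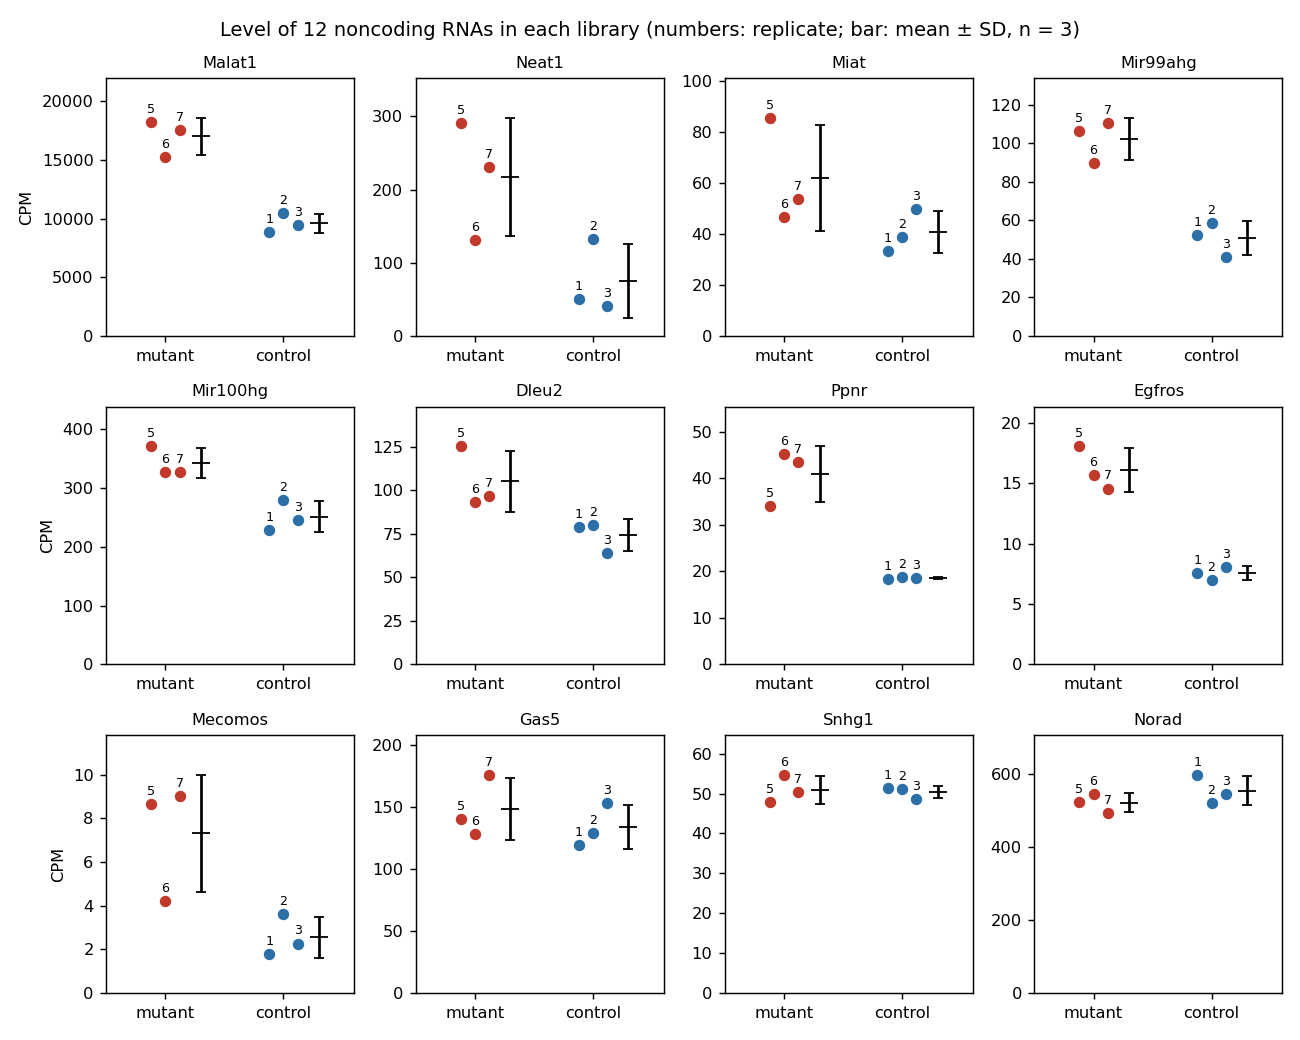
Level (CPM, axes from 0) of 12 noncoding RNAs in each mutant (left, red) and control (right, blue) library, numbered by replicate, with bars for mean ± SD (n = 3). Malat1, Mir99ahg, Mir100hg, Dleu2, Ppnr, Egfros and Mecomos do not overlap, and Neat1, Miat, Gas5, Snhg1 and Norad do.

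Among microRNA hosts, 5 of 11 were higher in every mutant than in any control (Mir99ahg, Mir181a-1hg, Dleu2, Mir100hg and Mir17hg), where 17.1% of all genes were. Mir99ahg, a spliced host that spans 537111 bases of chromosome 16 (77236317 to 77773427), had 106.5, 89.8 and 110.7 CPM in mutants, against 52.3, 58.7 and 41.1 CPM in controls. The groups were far apart, with a ratio of 2.02 and a log2 change of 1.01 ± 0.14 (SE, n = 3 each). Mir100hg, its relative on chromosome 9 (41376526 to 41615185), had 370.4, 326.9 and 326.0 CPM in mutants, against 228.7, 279.7 and 244.5 CPM in controls. Its ratio was smaller, 1.36, with a log2 change of 0.44 ± 0.10 (SE, n = 3 each). Both hosts of miR-125b-5p and of the shared seed printed above were thus higher in every mutant library than in any control library.

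Dleu2, the miR-15a and miR-16 host on chromosome 14 (61602839 to 61682373), had 125.3, 93.3 and 96.7 CPM in mutants, against 78.9, 80.0 and 64.0 CPM in controls. The groups did not overlap, and the log2 change was 0.49 ± 0.14 (SE, n = 3 each). Mir17hg and Mir181a-1hg fall outside the rule for RNAs named with full values and are given because they make up the count of 5 above. Mir17hg, the precursor of the cluster printed above, had 17.8, 18.4 and 19.2 CPM in mutants, against 13.8, 15.2 and 13.4 CPM in controls. Mir181a-1hg had 11.4, 8.95 and 8.31 CPM in mutants, against 4.01, 6.59 and 4.88 CPM in controls.

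The 6 other hosts overlapped between groups. Mir205hg, whose microRNA is made in epithelium, had 21.6, 32.3 and 23.6 CPM in mutants, against 8.96, 23.3 and 12.1 CPM in controls. Control 2 reached the level of the mutants, and the log2 change was 0.85 ± 0.30 (SE, n = 3 each). The sum of 8 epithelial markers was 1169, 1761 and 1501 CPM in mutants and 909.4, 1514 and 1384 CPM in controls, so mutant 6 and control 2 were the highest of their groups in both measures; the part of epithelium in Mir205hg was not tested.

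Dnm3os, the host of miR-199a and miR-214 and a gene needed for normal skeletal growth in mice, had 319.2, 337.2 and 313.8 CPM in mutants, against 352.4, 307.8 and 234.5 CPM in controls. Control 1 was the highest library, and the log2 change of 0.14 ± 0.14 (SE, n = 3 each) changed sign when control 3 was left out. The other hosts, namely Mir22hg, Mir124a-1hg, Mir124-2hg and Mir133a-1hg, averaged under 4 CPM in each group. Mir133a-1hg, a host of muscle microRNAs, had 0.57, 1.06 and 0.27 CPM in mutants, against 0.32, 0.30 and 0.39 CPM in controls. Mutant 7 and the controls were close to the level of 3 reads (0.199 to 0.299 CPM), and mutant 6 was the highest. The muscle marker sum given above was lower in every mutant than in any control.

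Ppnr, Norad and Pvt1 belong to no common kind. Ppnr is annotated as a sense intronic RNA of 2 exons on chromosome 19 (55841672 to 55845897), inside an intron of Tcf7l2, which encodes a DNA-binding partner of beta-catenin. It had 34.1, 45.2 and 43.4 CPM in mutants, against 18.4, 18.8 and 18.6 CPM in controls. The controls were nearly alike and all mutants far above them, with a ratio of 2.20 and a log2 change of 1.09 ± 0.13 (SE, n = 3 each). Tcf7l2 itself averaged 133.0 ± 24.8 CPM in mutants and 128.5 ± 25.4 CPM in controls (SD, n = 3 each; log2 change 0.05 ± 0.18 SE, limma adjusted p = 0.889). Reads from unspliced Tcf7l2 RNA that fall on the exons of Ppnr, on the same strand, cannot be told from Ppnr.

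Norad, a cytoplasmic RNA that binds Pumilio proteins (listed under its older symbol 2900097C17Rik, chromosome 2, 156388065 to 156392979), was slightly lower on average. It had 525.1, 545.8 and 494.7 CPM in mutants, against 598.9, 520.3 and 544.7 CPM in controls, and the groups overlapped with a log2 change of -0.09 ± 0.09 (SE, n = 3 each). Per kilobase of exon it was second to Malat1 among the RNAs given here with full values that have an annotated exon length, at 106.2 CPM in mutants and 112.8 CPM in controls. Pvt1, a neighbour of Myc, was low at 5.62, 3.04 and 3.71 CPM in mutants, against 4.47, 3.34 and 3.36 CPM in controls.

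Of the 16 snoRNA hosts, 15 overlapped, and Snhg6, which was lower, was the one that did not. Of all genes, 17.1% were higher and 10.8% lower without overlap. The log2 changes of the 16 hosts ran from -0.29 to 0.45. The highest was that of Snhg20, which falls outside the naming rule, with 8.002, 9.093 and 10.69 CPM in mutants, against 4.63, 9.11 and 6.29 CPM in controls. Gas5, a growth-arrest RNA whose spliced form is degraded during translation (chromosome 1, 161034422 to 161038539), had 140.4, 128.5 and 176.2 CPM in mutants, against 119.6, 128.8 and 153.6 CPM in controls. Snhg1 had 47.9, 54.8 and 50.3 CPM in mutants, against 51.3, 51.3 and 48.5 CPM in controls, a log2 change of 0.02 ± 0.09 (SE, n = 3 each). Neither host differed beyond its spread between libraries.

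Snhg5 had 30.6, 34.7 and 34.1 CPM in mutants, against 35.4, 35.9 and 30.1 CPM in controls. Snhg12 had 20.8, 22.9 and 25.9 CPM in mutants, against 25.6, 27.8 and 20.8 CPM in controls. Snhg17 had 38.7, 34.4 and 41.0 CPM in mutants, against 28.7, 36.7 and 28.1 CPM in controls. In all 3 hosts the groups overlapped. Snhg6, which lies opposite the exons of Mcmdc2, had 11.5, 12.4 and 12.2 CPM in mutants, against 13.3, 15.7 and 15.6 CPM in controls, and so was lower in every mutant (log2 change -0.29 ± 0.13 SE, n = 3 each).

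Snhg11, a host known from neurons, followed single libraries and not the groups. It had 55.5, 10.04 and 10.34 CPM in mutants, against 13.8, 26.4 and 25.5 CPM in controls. Mutant 5 was the highest library and the other mutants the lowest, and the log2 change of -0.20 ± 0.57 (SE, n = 3 each) was -0.98 without mutant 5. The sum of 8 neuron markers was 750.5, 172.6 and 276.6 CPM in mutants and 476.6, 510.1 and 909.0 CPM in controls; its part in Snhg11 was not tested. Snhg14, the host of the imprinted snoRNA clusters of the Prader-Willi region, was likewise high in mutant 5, with 38.9, 14.4 and 14.8 CPM in mutants, against 18.521, 11.995 and 19.385 CPM in controls.

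The snoRNAs inside these hosts were read apart from them. The table held 19 snoRNA or small Cajal body RNA genes that lie within 13 of the hosts or opposite-strand RNAs. In mutants 17 of these small RNAs were lower and 2 higher, with a median log2 change of -0.36. By limma none of the 19 passed (lowest adjusted p = 0.0586), and 6 were lower at an unadjusted p below 0.05, where 8.07% of all genes were. The 73 other small RNA genes of these classes had a median of -0.11, with 50 lower and 23 higher. None of those passed by limma either, with 11 lower at an unadjusted p below 0.05. Of the 19, 8 did not overlap and were lower and 0 higher, where 10.8% of all genes were lower. Of the 73 others, 14 did not overlap and were lower and 6 higher. The 16 snoRNA hosts had the median of 0.08 given above. Many of these small RNAs were low, as only 12 of the 19 averaged at least 1 CPM. Among the 8, Gm25894, Snora44, Snord1b, Snord60 and Snord80 averaged under 1 CPM. Gm25894 in Snhg1 was at or under the level of 3 reads in 4 libraries, and Snord80 in Gas5 in 3.

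Gas5 is given as an example and was chosen after the values were seen. Gm22357, a snoRNA gene in Gas5, had 6.52, 7.29 and 4.78 CPM in mutants, against 13.6, 11.1 and 13.4 CPM in controls (log2 change -0.94 ± 0.18 SE, limma adjusted p = 0.0618, n = 3 each). Snord47 had 0.30, 0.73 and 0.10 CPM in mutants, against 2.02, 3.07 and 1.36 CPM in controls (limma adjusted p = 0.0762). Both snoRNAs were lower in every mutant while Gas5 overlapped, though Snord47 was under the level of 3 reads (0.199 CPM) in mutant 7. In some other hosts the small RNA overlapped too: Scarna13 in Snhg10 had 30.5, 21.9 and 23.3 CPM in mutants, against 18.5, 29.7 and 18.5 CPM in controls. The size selection of the libraries is not known here, RNAs this short are often lost in a standard library, and reads of a host intron over a small RNA cannot be told from the small RNA.

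**Figure D3:**
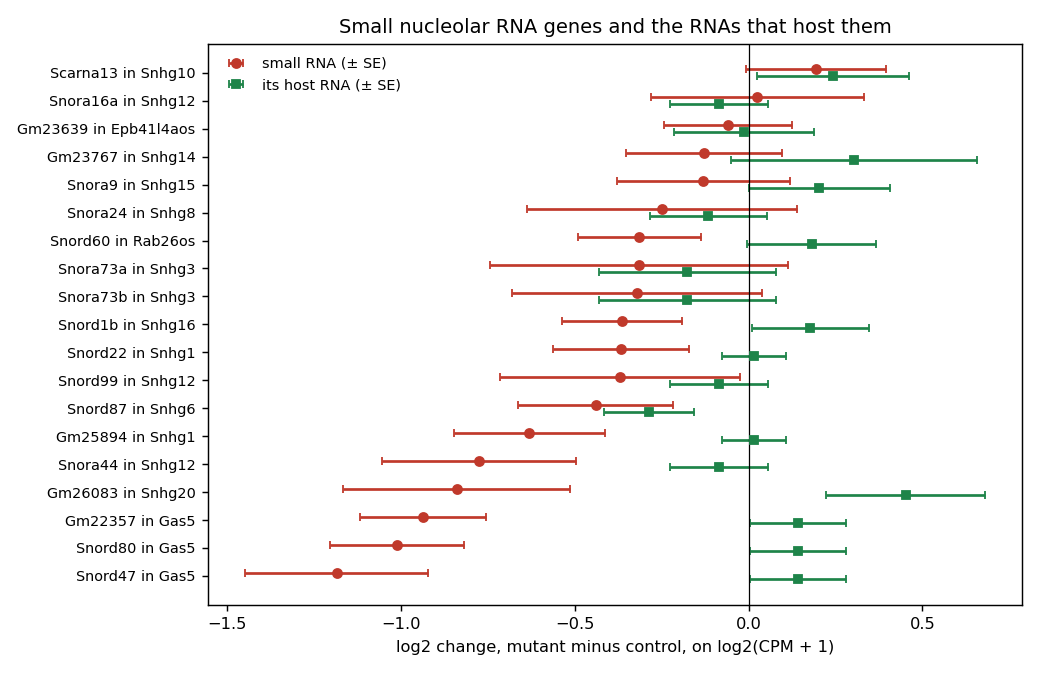
For each of 19 small RNA genes, the log2 change, mutant minus control, on log2(CPM + 1) of the small RNA (red circles) and of the RNA that hosts it (green squares), with bars of 1 SE (n = 3 each). The small RNAs reach -1.18 (Snord47 in Gas5), while their hosts lie between -0.29 and 0.45.

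The opposite-strand RNAs were mostly low, with a median level of 1.29 CPM over the 6 libraries. Of the 124, 78 averaged at least 1 CPM, and their median log2 change was 0.30. Mecomos, opposite to Mecom on chromosome 3 (30012379 to 30054808), had 8.67, 4.20 and 9.04 CPM in mutants, against 1.78, 3.61 and 2.26 CPM in controls. The groups did not overlap, though mutant 6 and control 2 were close, and the log2 change was 1.20 ± 0.30 (SE, n = 3 each). Mecom, a zinc finger transcription factor, averaged 111.3 ± 27.5 CPM in mutants and 68.4 ± 6.9 CPM in controls (SD, n = 3 each; limma adjusted p = 0.0812). Exons of the pair overlap, so reads of the more abundant Mecom cannot be told from those of Mecomos without strand.

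Egfros lies opposite to Egfr, the epidermal growth factor receptor gene, with exons apart from its exons (chromosome 11, 16815431 to 16830702), and overlaps it, so reads of unspliced Egfr RNA cannot be told from it without strand. It is outside the rule for RNAs named with full values and was chosen after its values were seen, as 1 of the 3 past the threshold. It had 18.1, 15.7 and 14.6 CPM in mutants, against 7.60, 6.99 and 8.10 CPM in controls, a log2 change of 1.00 ± 0.14 (SE, n = 3 each). Egfr averaged 138.3 ± 13.4 CPM in mutants and 132.2 ± 19.9 CPM in controls (SD, n = 3 each; limma adjusted p = 0.778).

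Large differences in 2 other opposite-strand RNAs changed much in size when single libraries were left out. Plxna4os2, opposite to the semaphorin receptor gene Plxna4, had 11.6, 2.13 and 2.85 CPM in mutants, against 2.24, 0.70 and 0.93 CPM in controls. Mutant 5 was far above the rest, and the log2 change of 1.28 ± 0.50 (SE, n = 3 each) was 0.66 without it. Six3os1, opposite to the forebrain and eye gene Six3, had 13.4, 3.42 and 22.1 CPM in mutants, against 5.05, 7.60 and 1.38 CPM in controls. Mutant 6 was below controls 1 and 2. The log2 change of 1.19 ± 0.63 (SE, n = 3 each) was 1.87 without mutant 6, 0.68 without mutant 7 and 0.66 without control 3.

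A few opposite-strand RNAs were lower in mutants. Igf2os, opposite to the exons of Igf2 on chromosome 7 (142659693 to 142670356), had 20.3, 18.6 and 16.8 CPM in mutants, against 27.1, 23.0 and 26.8 CPM in controls, with a log2 change of -0.45 ± 0.12 (SE, n = 3 each). Igf2, a fetal growth factor gene, differed by a like amount, at 1790 ± 48 CPM in mutants and 2452 ± 128 CPM in controls (SD, n = 3 each; log2 change -0.45 ± 0.11 SE, limma adjusted p = 0.0852). The exons overlap and the strand of counting is not given, so reads of one cannot be told from reads of the other.

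Fzd10os, named after the Wnt receptor gene Fzd10, had 3.01, 4.26 and 2.98 CPM in mutants, against 4.88, 6.69 and 6.46 CPM in controls. On log2(CPM + 1) it had the lowest difference of all 157, -0.67 ± 0.20 (SE, n = 3 each). Fzd10 averaged 9.67 ± 1.20 CPM in mutants and 14.4 ± 3.6 CPM in controls (SD, n = 3 each; limma adjusted p = 0.183). Both were lower in every mutant than in any control. Atcayos had 2.04, 1.63 and 1.06 CPM in mutants, against 2.50, 2.12 and 2.20 CPM in controls. Map2k3os was near 1 CPM throughout, with 1.30, 0.61 and 0.86 CPM in mutants, against 1.84, 0.60 and 1.87 CPM in controls.

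Of the 3 opposite-strand RNAs averaging at least 20 CPM, Igf2os was described above and the other two overlapped. Oip5os1, known in mouse as the cytoplasmic RNA Cyrano that directs the decay of miR-7, had 243.4, 255.1 and 240.8 CPM in mutants, against 237.9, 217.7 and 248.0 CPM in controls. Brip1os had 52.0, 58.0 and 49.8 CPM in mutants, against 58.2, 67.5 and 57.4 CPM in controls.

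The coding genes beside these RNAs had differences centred near 0. Of 140 coding genes that overlap one of the RNAs or share its name, none passed by limma, with 24 higher and 17 lower at an unadjusted p below 0.05, where 13.4% of all genes were higher and 8.07% lower, and their median log2 change was 0.02. In 124 pairs joined by name, the signed log2 difference of the noncoding RNA was above that of the coding gene in 92, and it was larger in size in 71. In 48 pairs the noncoding RNA was positive and the coding gene negative, against 10 the other way. Of all 157 RNAs 79.0% were positive, and of the 112 coding genes joined by name 57 were. The gap between those pair counts follows from such shares and says nothing of regulation within pairs. Some coding genes are counted in several pairs. Across the 78 pairs whose RNA averaged at least 1 CPM, Pearson's r between the differences was 0.37, a description over pairs that share libraries and, where exons overlap, reads.

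**Figure D4:**
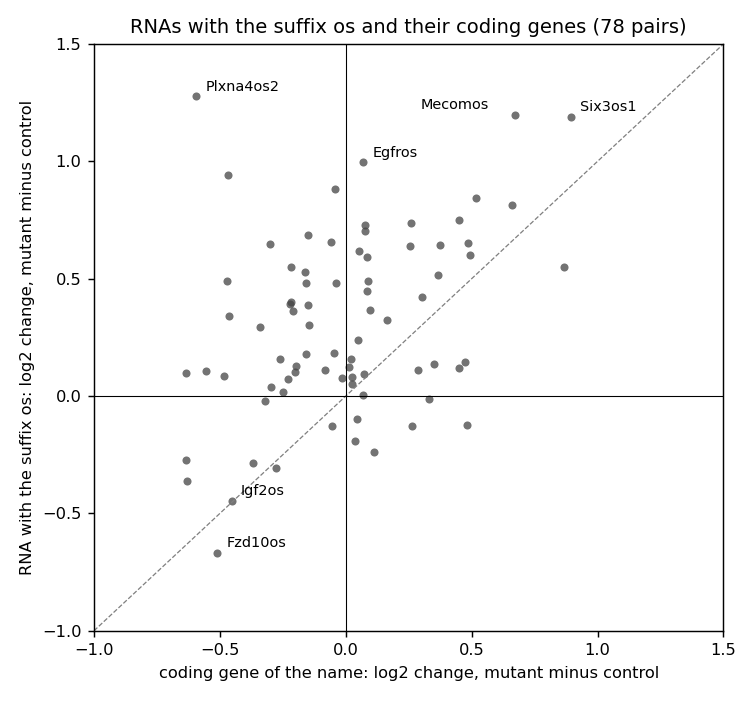
Each point is 1 of 78 RNAs with the suffix "os" that average at least 1 CPM and have a coding gene of their name (77 opposite-strand RNAs and the microRNA host Dnm3os), placed by the log2 change, mutant minus control, of the coding gene of its name (x axis) and its own (y axis), both on log2(CPM + 1); the dashed line marks equal changes. Most points lie above the line, as 63 of the 78 RNAs had the higher signed value, and 53 had the larger one in size.

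The other annotated classes of the table differed among themselves. Among genes averaging at least 1 CPM, 28.2% of the named noncoding RNAs were not overlapping and higher, and 3.64% were not overlapping and lower. Genes annotated as lincRNA gave 26.5% higher and 3.27% lower, antisense genes 32.9% higher and 1.99% lower, and processed transcripts 30.6% higher and 2.71% lower. Sense intronic genes, the class of Ppnr, gave 57.5% higher, with 96.7% of the 120 positive. TEC genes, mostly single-exon transcripts that GENCODE lists as to be experimentally tested, gave 57.9% higher and 0.424% lower of 1180. Protein-coding genes gave 13.1% higher and 13.8% lower, and snoRNA genes 6.52% higher and 23.9% lower of 46. These classes partly hold the same RNAs and overlap coding genes, and no test was run between them.

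**Figure D5:**
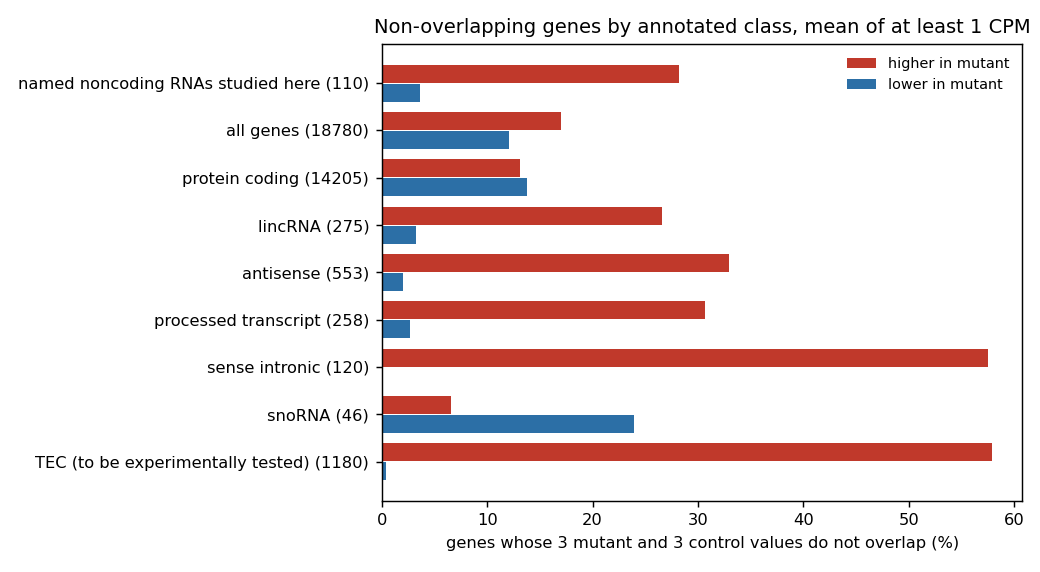
Percentage of genes, of those with a mean of at least 1 CPM, in which all 3 mutant values lie above all 3 control values (red) or below them (blue), by GENCODE class with the number of genes in brackets. Sense intronic and TEC genes reach 57.5% and 57.9% higher, protein-coding genes 13.1%, and snoRNA genes 23.9% lower.

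Genes that make, hold or degrade these RNAs were read from lists. Of 22 other nuclear or imprinted long noncoding RNAs, 1 rose by limma and none fell, with 9 higher and 2 lower at an unadjusted p below 0.05, where 13.4% of all genes were higher and 8.07% lower. This was Kcnq1ot1, the antisense RNA that silences an imprinted cluster in cis, with 1522, 1244 and 1422 CPM in mutants, against 690.7, 800.3 and 694.4 CPM in controls (log2 change 0.94 ± 0.12 SE, limma adjusted p = 0.0276, n = 3 each). Like Malat1 and Neat1, it is a nuclear RNA. Tsix (log2 change 1.28), Firre (0.67) and Sox2ot (1.08) had every mutant above every control at limma adjusted p values of 0.0501 to 0.0567. The list's median was 0.05.

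Proteins of the nuclear bodies showed small differences. None of 17 paraspeckle genes passed by limma (4 higher at an unadjusted p below 0.05), and Pspc1, a core paraspeckle protein that binds Neat1, averaged 120.2 ± 7.1 CPM in mutants and 99.6 ± 2.9 CPM in controls (SD, n = 3 each; limma adjusted p = 0.128). None of 20 nuclear speckle genes passed by limma, with 8 higher and 1 lower at an unadjusted p below 0.05. Of all genes, 13.4% were higher and 8.07% lower at that p. Clk4, a kinase of splicing factors, averaged 79.1 ± 1.5 CPM in mutants and 55.8 ± 3.3 CPM in controls (SD, n = 3 each; limma adjusted p = 0.0513). The medians of the lists were 0.07 and 0.11, against 0.04 for all genes.

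Among 18 nuclear RNA decay factors, 1 rose by limma and none fell, with 2 higher and 0 lower at an unadjusted p below 0.05, where 13.4% of all genes were higher and 8.07% lower. It was Zcchc7, a subunit of the TRAMP complex that feeds RNA to the nuclear exosome, at 90.4 ± 2.0 CPM in mutants and 60.5 ± 4.7 CPM in controls (SD, n = 3 each; log2 change 0.57 ± 0.09 SE, limma adjusted p = 0.0390). None of 19 nonsense-mediated decay factors passed by limma (4 higher at an unadjusted p below 0.05). Upf3b, which links exon junctions to that decay, averaged 83.8 ± 16.7 CPM in mutants and 50.9 ± 6.4 CPM in controls (SD, n = 3 each; limma adjusted p = 0.0708).

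None of 18 microRNA processing and effector genes passed by limma, with 6 higher at an unadjusted p below 0.05, where 13.4% of all genes were. Dicer1, which cuts the hairpins of the hosts, averaged 250.8 ± 22.1 CPM in mutants and 190.1 ± 0.8 CPM in controls (SD, n = 3 each; limma adjusted p = 0.0763). None of 19 genes for snoRNP proteins, the partners of snoRNAs, passed by limma, with 1 higher and 4 lower at an unadjusted p below 0.05, where 8.07% of all genes were lower. Fbl, the methyltransferase that works with box C/D snoRNAs such as Snord47, averaged 25.3 ± 3.6 CPM in mutants and 36.8 ± 6.6 CPM in controls (SD, n = 3 each; limma adjusted p = 0.119).

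Ribosomal protein and histone messages had negative medians. None of 77 cytosolic ribosomal protein genes passed by limma, with 19 lower and 0 higher at an unadjusted p below 0.05, where 8.07% of all genes were lower, and a median log2 change of -0.14. None of 8 replication-dependent histone genes passed by limma either, with 4 lower at an unadjusted p below 0.05 and a median of -0.47. Mitochondrially encoded genes summed to 71361 ± 4348 CPM in mutants and 56140 ± 11452 CPM in controls (SD, n = 3 each; exact two-sided permutation p = 0.2). RNA integrity numbers were above 9 in all samples by the series' design text, and the part of RNA selection or quality in the differences was not tested.

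The number of calls changed with the libraries used. Of the noncoding RNAs, 3 passed by limma, 6 without control 2, and 0 without any one of controls 1 and 3 and mutants 5, 6 and 7, or without the intensity trend in limma's prior variance. The values moved less than the calls: over all settings tried the log2 change was 0.87 to 1.12 for Mir99ahg, 1.01 to 1.21 for Ppnr, 0.91 to 1.08 for Egfros and 0.77 to 0.90 for Malat1.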

How the data were processed

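RNA of soft palate from 3 mutant and 3 control samples was sequenced on an Illumina instrument, per the labels. The submitters' processing notes name STAR, with no version, and the build mm10. Of the kit, strand, RNA selection, counting and annotation the sources used here say nothing. The authors deposited CPM values (reads per gene scaled to a common total) with a constant of 0.0001 added, as found from the values; a second, filtered list of 2432 genes held the same values and 30 of the noncoding RNAs. Samples are rows matched by name, and 0 columns were left unmapped.

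The constant was removed. The step between low values gave the reads behind each library; only 63.6 to 68.0% of low values came out whole (tolerance 0.02 reads), so whole reads were not recovered and no count model was fitted. Levels of 3 reads (0.199 to 0.299 CPM) cover counting error only. Mutants were compared with controls by limma 3.58.1 in R 4.3.3 on log2(CPM + 1), with an intensity trend, no filter on low values, no block and Benjamini-Hochberg adjustment over 21938 genes. The step was tested on simulated data, with changes placed only in genes of higher level and the same added spread in every gene. That test therefore does not cover RNAs of low level, and the 157 noncoding RNAs had a median level of 1.77 CPM.

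The RNAs and all gene lists were chosen with earlier results of these data known. Norad was matched by an older symbol. Positions and classes come from GENCODE vM21 for 165 of the 177 genes and from RefSeq for 10, and 2 had neither (Mir181a-1hg and Lef1os1). Full values are given by rule for the 8 RNAs named one by one and for noncoding RNAs averaging at least 20 CPM. The rule also takes the 5 largest differences in each direction among those averaging at least 1 CPM. Values of Egfros, Mir17hg, Mir181a-1hg, Mir133a-1hg, Snhg14 and Snhg20 are given outside it. From each list the 4 genes of smallest p were candidates.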

Additional observations from a re-analysis of the deposited data

How the results depend on the processing

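Settings tried were a pseudocount of 0.1, a filter at a mean of 1 CPM, median ratio scaling, Malat1 and mitochondrial genes left out of the totals, no intensity trend, and each library left out. With no trend the counts past the limma threshold went to 0 for all genes higher and lower (43 and 62 as reported), for the noncoding RNAs higher (3 as reported) and for the companion lists higher (2 as reported). With the filter, with median ratio scaling and with Malat1 out, the companion lists had 5 higher each. Leaving out single libraries gave 0 to 254 higher and 0 to 198 lower over all genes, 0 to 6 noncoding RNAs higher, 0 to 5 companion genes higher and 0 to 1 lower, and 0 to 3 coding partners higher; the highest of each came without control 2, and the cause was not tested. The median log2 change of the noncoding RNAs was 0.37 with a pseudocount of 0.1, which lifts the changes of low genes by its construction. Of the 27 RNAs with full values by the rule, 6 turned sign under some setting (Dnm3os, Pvt1, Snhg1, Snhg5, Snhg11 and Snhg12). Snhg14, given outside that rule, also turned, and of all 157 RNAs 57 did. Leaving Malat1 out cannot give a mitochondrial sum. No paired analysis was possible because the groups share no replicate numbers. The means of 47 of the 157 lie below 1 CPM, or about 10 to 15 reads a library, which limits what can be shown.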

Other observations

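Of 13 pairs of neighbouring noncoding RNAs within 50 kb, 10 were both higher in mutants, 1 was both lower and 2 were mixed. Of all 157 RNAs 79.0% were higher, but this is a share of single RNAs and cannot be set against a count of pairs. Of the 13 pairs, 2 overlap each other, Dlx6os1 and Dlx6os2 among them. Runx2os2 and Runx2os1, beside the bone gene Runx2, had log2 changes of 0.74 and 0.42, and Dlx6os1 and Dlx6os2, at the Dlx5 and Dlx6 genes of jaw patterning, had 0.73 and 0.14. Snhg17 and Snhg11 were a mixed pair, at 0.28 and -0.20. These pairs were chosen after the values were seen and carry no test.

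The core sequence that TCF and LEF factors bind, CTTTGAT, read on both strands as exact letters, was looked for in RefSeq promoter windows for GRCm38.p6. It was in 3 of the 97 noncoding RNAs with a window (Cdr1os, Kirrel3os and Snhg8), or 3.09%, against 3.11% of the 12979 measured genes with a window. A match is no evidence of binding, and none says only that these letters are absent there. Longer genes had slightly more positive signed log2 changes among the noncoding RNAs (Spearman's rho 0.11 between genomic span and log2 change over 109 RNAs). The same held among coding genes (0.19 over 14205 genes). Both are descriptions across genes of the same libraries.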
